A study of Homo sapiens with 6 samples.

Results

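The mitochondrial ribosomal proteins are the proteins of the ribosome that works inside mitochondria. Members were taken from the deposited gene table as protein-coding genes whose symbol is MRPL or MRPS followed by a number and, in some cases, a letter. This gave 78 of 62710 genes, of which 49 carry the MRPL symbol of the large subunit and 29 the MRPS symbol of the small subunit. After the filter on low counts 76 members (48 large, 28 small) were among the 16753 genes tested. RNA was sequenced from HCT116, an established human colon cancer cell line, in 3 sh-NC and 3 sh-IGF2BP3 libraries. The sh-NC cells, labelled negative control, carried a scrambled shRNA delivered by lentivirus, and the sh-IGF2BP3 cells, labelled IGF2BP3 knockdown, carried 1 shRNA against IGF2BP3, an RNA-binding protein that reads m6A marks on mRNA. Both were stable lines selected with puromycin, and the knockdown rests on this single hairpin sequence. The labels do not say that the 3 libraries of a group came from separate cultures, so p-values measure only the spread between these libraries, which may be technical.

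The hairpin sequences are shown because they are the only designed difference between the groups, in lower case, 5′ to 3′.
sh-NC: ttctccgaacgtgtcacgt
sh-IGF2BP3: ggctcagggaagaatttat
The IGF2BP3 sequence of 19 bases matched 4 IGF2BP3 transcripts of GENCODE release 29 exactly and 1 processed pseudogene, AC092447.1. In the full-length IGF2BP3 transcript (GRCh38, minus strand) its first base is the last base of exon 12 of 15 (chr7:23317639) and the other 18 bases lie in exon 13 (chr7:23313636-23313653), all within the coding sequence. Neither sequence matched a transcript of a mitochondrial ribosomal protein gene exactly.

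As background, the mitochondrial ribosome is of bacterial descent. It translates the few mRNAs encoded by the mitochondrial genome, which specify core subunits of the respiratory chain and of ATP synthase. Its rRNAs are made in the mitochondrion, while all of its proteins are encoded in the nucleus, made in the cytosol and imported. Some of these proteins have counterparts in bacterial ribosomes and others were added in the mitochondrial lineage.

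Library totals ranged from 16146718 to 23576469 counts, and no pair of replicates agreed within sampling noise. IGF2BP3 was at 90.3, 84.1 and 70.3 CPM (counts scaled to a common library size by TMM factors) in sh-NC and at 60.2, 52.3 and 55.8 in sh-IGF2BP3. The groups did not overlap, at a log2 fold change of -0.54 (SE 0.181, adjusted p = 0.126 by the edgeR quasi-likelihood test with Benjamini-Hochberg adjustment, exact permutation p = 0.1). The log2 fold change was -0.26 once the trends with GC content and length described below were removed. The groups then overlapped (adjusted p = 0.624 by the edgeR test). Of the epithelial markers EPCAM, CDH1, KRT8, KRT18 and CDX2 the lowest count in a library was 214, whereas villin (VIL1) had at most 3 counts. The leukocyte marker PTPRC had at most 1 count, the endothelial marker PECAM1 7 to 29 and the fibroblast collagen gene COL1A1 496 to 1024 counts, whose part in the results was not tested. These are bulk libraries, in which fewer cells of a type and less RNA per cell cannot be told apart.

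The members took a larger share of the counts in each sh-IGF2BP3 library than in any sh-NC library. Their counts made up 0.313%, 0.299% and 0.259% of all counts in sh-NC 1, 2 and 3, against 0.351%, 0.394% and 0.324% in sh-IGF2BP3 1, 2 and 3, so that the groups did not overlap. The summed CPM of all members was 2847 ± 451 (SD, n = 3) in sh-NC and 3671 ± 435 (SD, n = 3) in sh-IGF2BP3. Of the 76 tested members 65 had a log2 fold change above 0, with a median of 0.47 (-0.01 for all tested genes). By the edgeR test with the thresholds of the study (fold change above 1.5, adjusted p under 0.05) 0 members were called higher and 0 lower, as were 0% of all tested genes in either direction. The lowest adjusted p of a member was 0.103 (edgeR quasi-likelihood test, Benjamini-Hochberg). At an unadjusted p under 0.05, 36 of the 76 members were higher, against 13.6% of all tested genes, and 1 was lower, against 8.54%. DESeq2, a Wald test with the same thresholds, called 15 of the 76 members higher, against 4.21% of the 13298 genes it tested, and 0 lower, against 1.02%. Without the filter on low counts edgeR called 17 members higher, against 1.89% of all genes, and 0 lower, against 0.413%. Of the 17, 15 were the DESeq2 calls.

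The difference between the groups was not shared equally by the libraries. Values are given as the median, over members, of the difference between a member's log2 CPM and its own mean over the 6 libraries. For the large subunit it was 0.02, -0.22 and -0.55 in sh-NC 1, 2 and 3, against 0.22, 0.49 and 0.02 in sh-IGF2BP3 1, 2 and 3. For the small subunit it was 0.02, -0.16 and -0.44 in sh-NC, against 0.13, 0.41 and 0.05 in sh-IGF2BP3. Both subunits thus moved alike from library to library, and sh-NC 1 and sh-IGF2BP3 3 were close to each other. The library sh-NC 3 was the lowest of the 6 for 60 members (78.9%, against 24.1% of all tested genes), and sh-IGF2BP3 2 was the highest for 54 (71.1%, against 17.7%). These extremes were not particular to the members. The medians of cytosolic ribosomal protein genes and of nuclear respiratory chain and ATP synthase genes were also lowest in sh-NC 3 (-0.40 and -0.50). In both lists they were highest in sh-IGF2BP3 2 (0.59 and 0.60). In 34 members (44.7%) sh-IGF2BP3 3 was below sh-NC 1, as was sh-IGF2BP3 1 in 30 (39.5%) and sh-IGF2BP3 2 in 8 (10.5%). The same shares over all tested genes were not computed.

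**Figure D1:**
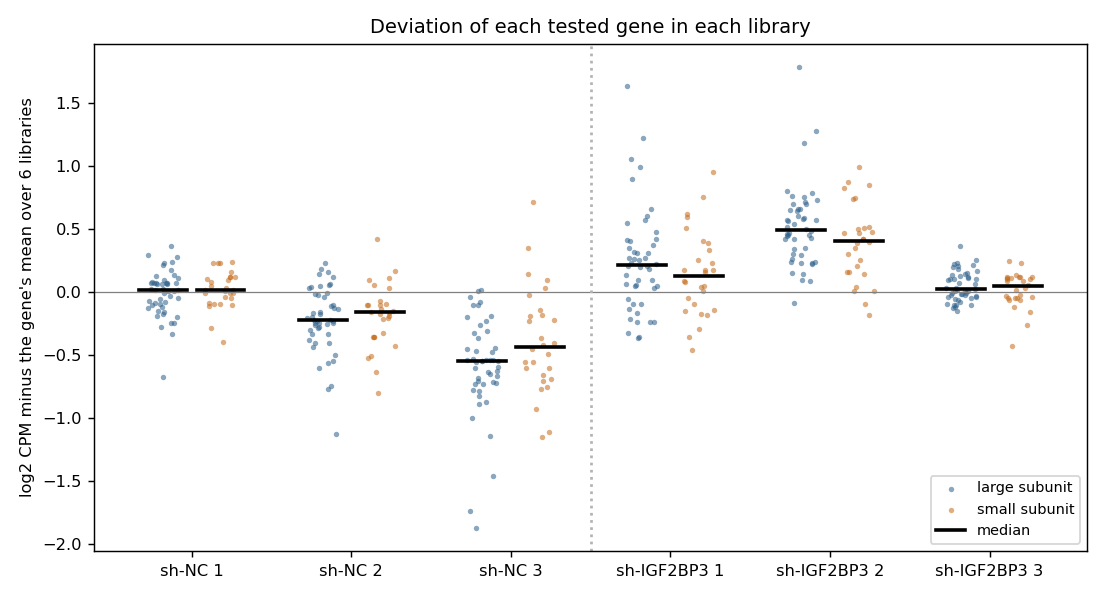
Each point is a tested mitochondrial ribosomal protein gene, plotted as its log2 CPM in a library minus its mean over the 6 libraries (y axis), with the large subunit left and the small subunit right in each library and a bar at the median. The medians were lowest in sh-NC 3 (-0.55 and -0.44) and highest in sh-IGF2BP3 2 (0.49 and 0.41).

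In 28 members (20 large, 8 small) the 3 sh-IGF2BP3 libraries all lay above the 3 sh-NC libraries in CPM, against 13.2% of all tested genes, and in 2 members all lay below, against 11.0%. For each of these 30 members the exact two-sided permutation test gave p = 0.1, the smallest that 3 against 3 libraries allow. The other 46 members overlapped. When sh-NC 1 was left out, edgeR called 30 members higher, against 10% of the 17379 genes then tested, and 0 lower, against 5.67%. All 15 DESeq2 calls were among the 30. When sh-NC 3 was left out, 1 member was called higher, MRPL23, of 5 genes in all (0.0290% of those tested). When sh-IGF2BP3 3 was left out, 4 were called higher (MRPL23, MRPL41, MRPS2 and MRPS28), of 214 genes in all (1.23% of those tested). None was called lower, against 0.0805% of those tested. None was called when sh-NC 2, sh-IGF2BP3 1 or sh-IGF2BP3 2 was left out.

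In the large subunit 25 of 48 tested genes were higher at an unadjusted p under 0.05 and 0 were lower. Over all tested genes these shares were 13.6% and 8.54%. DESeq2 called 11 higher, against 4.21% of all genes it tested. MRPL23, whose protein lies at the exit of the tunnel through which the new peptide leaves, had the highest log2 fold change of all members. The gene (chr11:1947278-1984522, plus strand) was at 5.53, 5.16 and 2.35 CPM in sh-NC and at 27.7, 30.8 and 8.23 CPM in sh-IGF2BP3. Its log2 fold change was 2.35 (SE 0.423, adjusted p = 0.103 by edgeR, 0.0217 by DESeq2), and the groups did not overlap, although sh-IGF2BP3 3 was far below the others. MRPL12, the protein of the flexible stalk that recruits translation factors, was at 10.4, 3.88 and 3.07 CPM in sh-NC and at 18, 19.6 and 8.97 in sh-IGF2BP3 (log2 fold change 1.43, SE 0.406). Here sh-IGF2BP3 3 lay below sh-NC 1, so the groups overlapped.

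MRPL54, a protein without a bacterial counterpart, was at 7.67, 6.94 and 2.4 CPM in sh-NC and at 15.4, 20.1 and 7.67 in sh-IGF2BP3 (log2 fold change 1.34, SE 0.399), which also overlapped. MRPL2, one of the proteins nearest to the peptidyl transferase centre, was at 4.51, 3.64 and 2.3 CPM in sh-NC and at 12.2, 8.24 and 5.05 in sh-IGF2BP3 (log2 fold change 1.29, SE 0.357). MRPL41, found in mitochondrial but not in bacterial ribosomes, was at 11.1, 8.55 and 6.28 CPM in sh-NC and at 25.3, 21.9 and 12.4 in sh-IGF2BP3 (log2 fold change 1.2, SE 0.295). In MRPL2 and MRPL41 the groups did not overlap, and the lowest knockdown library was again sh-IGF2BP3 3.

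Of the other 6 large-subunit genes that DESeq2 called, MRPL11, at the base of the stalk, was at 40.3, 33.7 and 27.6 CPM in sh-NC and at 57, 71.5 and 46.9 in sh-IGF2BP3 (log2 fold change 0.79, SE 0.212). MRPL55 was at 10.6, 7.48 and 10 CPM in sh-NC and at 17.6, 19.2 and 14.8 in sh-IGF2BP3 (0.87 on the log2 scale, SE 0.243). MRPL28 was at 28.2, 21.6 and 17.8 CPM in sh-NC and at 46.3, 43.8 and 29 in sh-IGF2BP3 (0.81 on the log2 scale, SE 0.234). None of these 3 genes had overlapping groups, and MRPL28 came closest to it, with sh-NC 1 next to sh-IGF2BP3 3. MRPL36, a small protein with a bacterial counterpart, was at 9.31, 9.5 and 6.34 CPM in sh-NC and at 15.2, 19.8 and 12.3 in sh-IGF2BP3 (0.91 on the log2 scale, SE 0.266). MRPL43 was at 36.7, 32.5 and 26.4 CPM in sh-NC and at 59.8, 60.8 and 41.1 in sh-IGF2BP3 (0.76 on the log2 scale, SE 0.210). MRPL51 was at 48.8, 45.7 and 32.6 CPM in sh-NC and at 71.9, 88.1 and 54.8 in sh-IGF2BP3 (0.76 on the log2 scale, SE 0.218). These groups did not overlap either. The proteins of MRPL43 and MRPL51 have no bacterial counterpart.

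**Figure D2:**
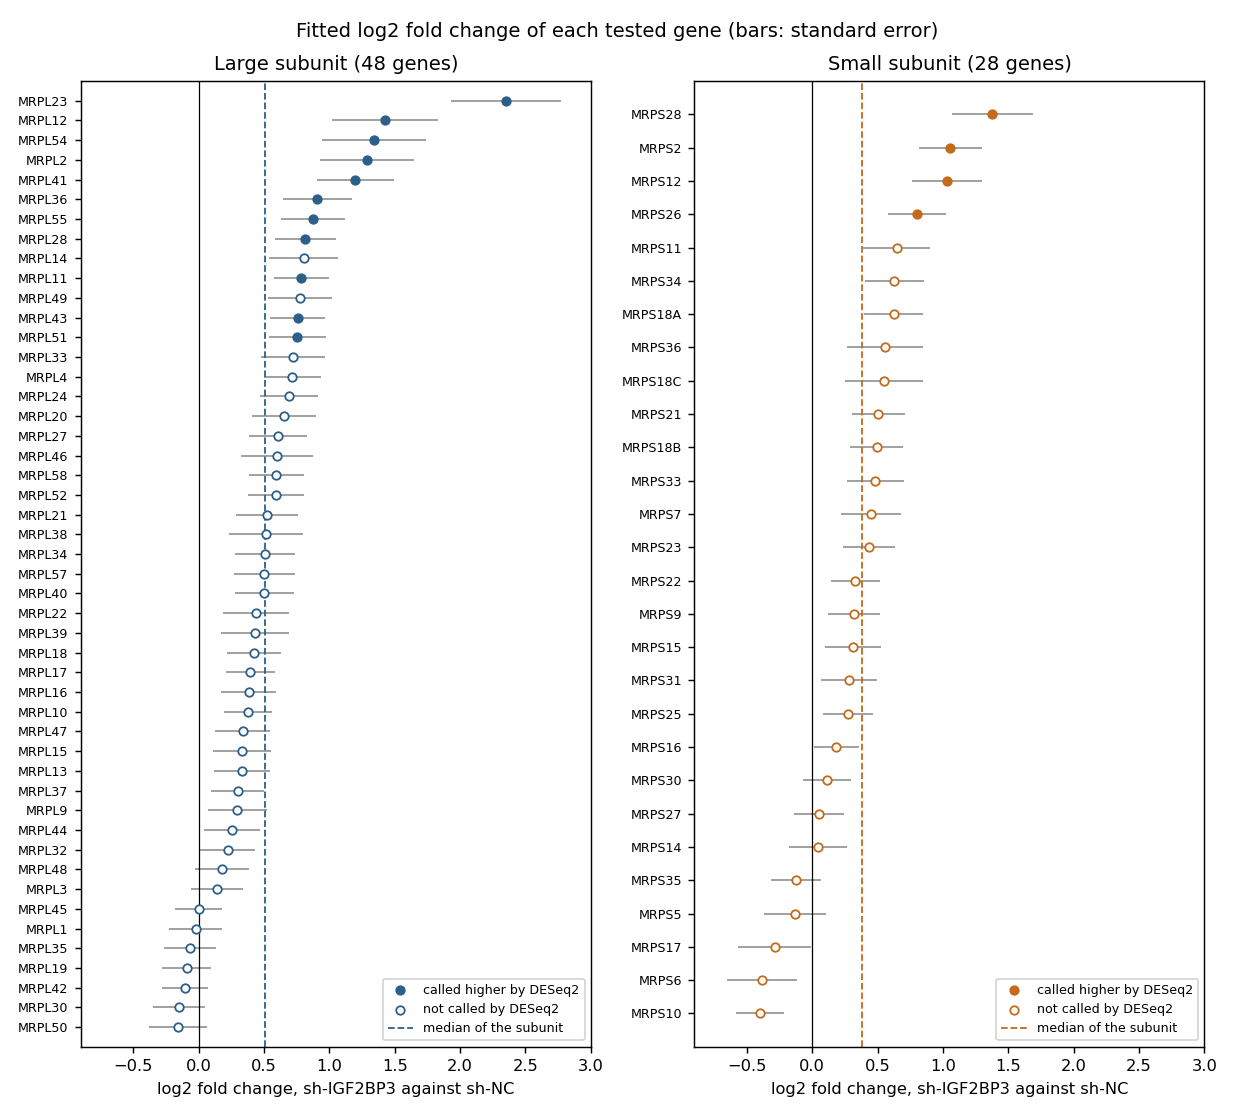
Fitted log2 fold change (x axis, sh-IGF2BP3 against sh-NC, 3 libraries each) of every tested gene of the large (left) and small (right) subunit, with bars for the standard error, filled points for the 15 genes called higher by DESeq2 and a dashed line at the subunit's median. Points above 0 number 42 of 48 in the large and 23 of 28 in the small subunit.

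In the small subunit 11 of 28 tested genes were higher at an unadjusted p under 0.05 and 1 was lower. Over all tested genes these shares were 13.6% and 8.54%. DESeq2 called 4 higher, against 4.21% of all genes it tested. MRPS28, on chromosome 8, was at 10.5, 6.49 and 5.06 CPM in sh-NC and at 22.1, 22.7 and 12.3 in sh-IGF2BP3 (log2 fold change 1.38, SE 0.310, adjusted p = 0.103 by edgeR and 0.00601 by DESeq2, the lowest DESeq2 value of any member). MRPS2 (chr9:135499984-135504673, plus strand), on the solvent side of the small subunit, was at 70, 46.4 and 38 CPM in sh-NC and at 122, 120 and 78.5 in sh-IGF2BP3 (log2 fold change 1.06, SE 0.240). MRPS12, a protein of the decoding centre, was at 34, 23.1 and 15.4 CPM in sh-NC and at 51.3, 61 and 36.1 in sh-IGF2BP3 (log2 fold change 1.03, SE 0.269). In each of the 3 genes the groups did not overlap. As a ratio the distance was smallest for MRPS12, where sh-IGF2BP3 3 was just above sh-NC 1. MRPS26, which bacteria lack, was at 32.4, 22.9 and 20 CPM in sh-NC and at 49.3, 46.2 and 35.8 in sh-IGF2BP3 (0.80 on the log2 scale, SE 0.222), again without overlap.

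The lowest log2 fold changes of the family belonged to small-subunit genes. MRPS10 (chr6:42206807-42217861, minus strand) was the 1 member lower at an unadjusted p under 0.05. It was at 61.8, 82.1 and 67.8 CPM in sh-NC and at 50, 54.1 and 56.5 in sh-IGF2BP3, without overlap (log2 fold change -0.40, SE 0.184, adjusted p = 0.218 by edgeR with Benjamini-Hochberg adjustment). Under the replicate block, under DESeq2 and with the GC and length trends removed, 0 members were lower at an unadjusted p under 0.05. MRPS6 was at 15.1, 22.5 and 32.8 CPM in sh-NC and at 20.5, 18.7 and 14.8 in sh-IGF2BP3 (-0.38 on the log2 scale, SE 0.266), so its groups overlapped, and it was highest in sh-NC 3, the library in which most members were lowest. Without sh-NC 3 its log2 fold change was -0.09, without sh-NC 1 it was -0.61, and with the GC and length trends removed it was -0.08. MRPS17 was at 6.04, 5.49 and 5.47 CPM in sh-NC and at 4.52, 5.17 and 4.26 in sh-IGF2BP3 (-0.29 on the log2 scale, SE 0.278). Its groups did not overlap, but its unadjusted p was 0.319.

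**Figure D3:**
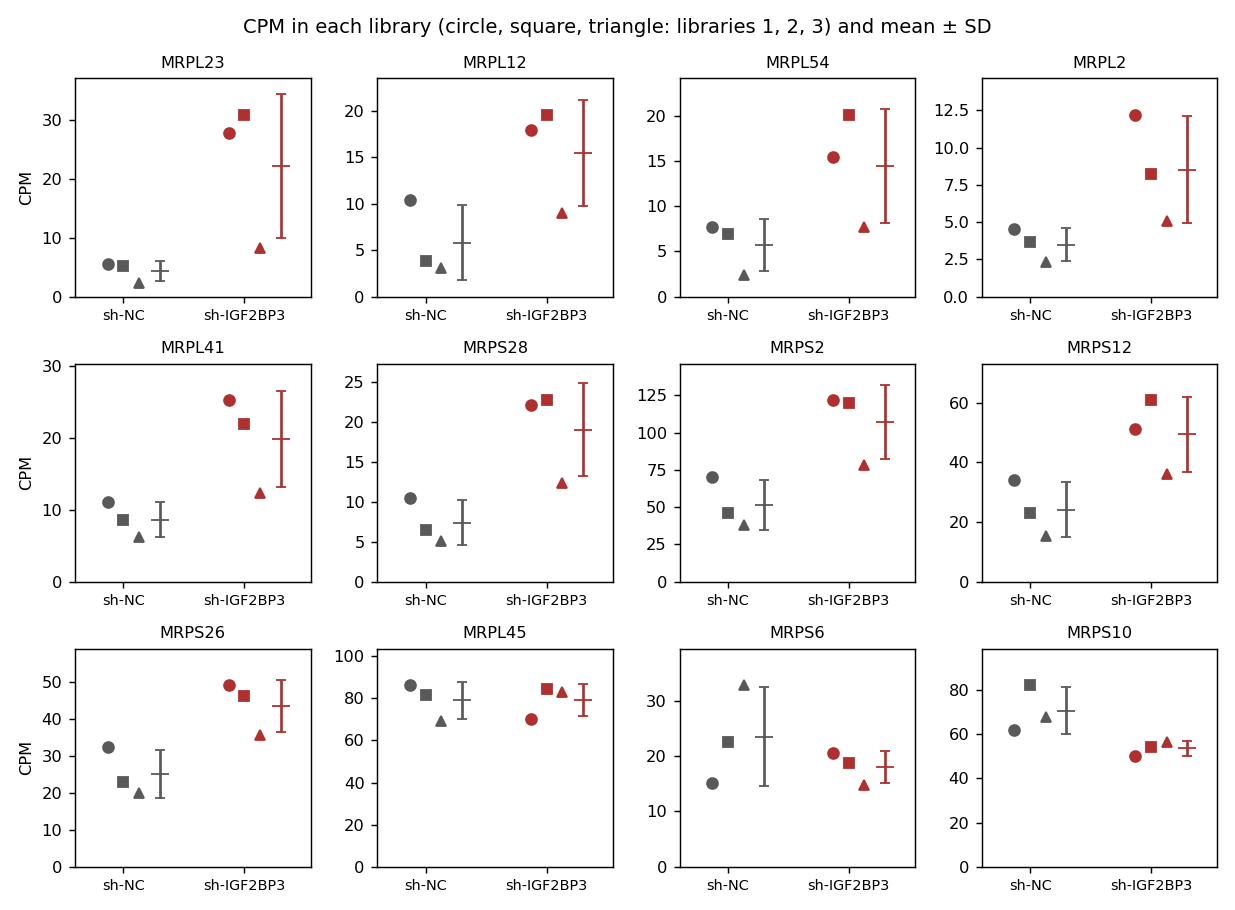
CPM (y axis, each panel from 0) of 12 members in the sh-NC and sh-IGF2BP3 libraries, with a circle, square and triangle for libraries 1, 2 and 3 and a bar for the mean ± SD (n = 3). In MRPL23 the sh-IGF2BP3 libraries range from 8.23 to 30.8, above the highest sh-NC library at 5.53, while in MRPS10 they lie between 50 and 56.5, below the lowest sh-NC library at 61.8.

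Per length and depth, the 76 tested members had a median level of 13.4 FPKM (fragments scaled by transcript length and library depth), from 1.48 to 49.0 FPKM, against a median of 3.58 FPKM over all tested genes. The highest levels were those of MRPS18B (49.0 FPKM, mean of 6 libraries), MRPL45 (46.2 FPKM), which ties the ribosome to the inner membrane, and MRPL3 (44.3 FPKM). Their log2 fold changes were 0.49 (SE 0.205), 0.00 (SE 0.181) and 0.14 (SE 0.202). MRPL45 was at 86.3, 81.5 and 69.2 CPM in sh-NC and at 70.2, 84.2 and 82.8 in sh-IGF2BP3, and its sign depended on the scaling. MRPS18B was at 85.4, 75.5 and 55.5 CPM in sh-NC and at 111, 111 and 82.6 in sh-IGF2BP3, and MRPL3 was at 121, 132 and 93.2 CPM and at 102, 147 and 133 CPM. Both overlapped between groups. The lowest levels among tested members were those of MRPS5 (1.48 FPKM), MRPL46 (1.58 FPKM) and MRPL38 (2.03 FPKM), with log2 fold changes of -0.13 (SE 0.235), 0.60 (SE 0.277) and 0.51 (SE 0.283). MRPL46 was at 10.3, 7.39 and 6.74 CPM in sh-NC and at 10.2, 16.4 and 10.6 in sh-IGF2BP3. MRPL38 was at 5.87, 4.34 and 6.64 CPM and at 8, 9.42 and 6.59 CPM, and MRPS5 at 19.9, 18.2 and 25.5 CPM and at 14.5, 22.4 and 21.2 CPM. All 3 overlapped between groups. Across the 76 members the mean FPKM and the log2 fold change had a Spearman correlation of 0.04.

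The 2 members that did not pass the filter were MRPL53 and MRPS24. MRPL53 had 1 count in sh-IGF2BP3 2 and 0 in the other 5 libraries. MRPS24 had 7, 7 and 11 counts in sh-NC and 0, 6 and 9 in sh-IGF2BP3. In the deposited coordinates MRPL53 lay to 99.4% inside the gene CCDC142 on the same strand and MRPS24 to 100% inside the readthrough gene URGCP-MRPS24, and how reads shared by overlapping genes were counted is not given in the sources used here, so these low counts do not show that the genes were silent. Of the tested members 7 (MRPL12, MRPL30, MRPL38, MRPL46, MRPS5, MRPS17 and MRPS28) also lay to at least 90% inside another protein-coding gene of the same strand. Their counts, and thus their order by FPKM, are uncertain for the same reason. Their median log2 fold change was 0.51, against 0.45 for the other 69. Exons of 29 members overlapped exons of the opposite strand, and whether counting used the strand is not given in the sources used here. Named pseudogenes exist for 36 members, and only for MRPL53 did their summed count reach 5% of the gene's own.

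The large and small subunits were compared by their medians. The median log2 fold change was 0.51 over the 48 large-subunit genes and 0.38 over the 28 small-subunit genes, a difference of 0.12. Counting MRPS30 and MRPS18A with the large subunit, where structures of the ribosome place them, left all 3 values as they were. Once the trends with GC content and length were removed the medians were 0.40 and 0.37, a difference of 0.03. The summed CPM was 1646 ± 286 (SD, n = 3) in sh-NC and 2169 ± 288 in sh-IGF2BP3 for the large subunit, and 1201 ± 166 and 1502 ± 147 for the small subunit. Proteins with a bacterial counterpart had a median log2 fold change of 0.47 in the large subunit (30 genes) and 0.45 in the small subunit (17 genes). Those without one had medians of 0.51 (18 genes) and 0.33 (11 genes). With the GC and length trends removed the order in the small subunit turned, with 0.36 for genes with a counterpart and 0.45 for those without. MRPS36, which structures place in the alpha-ketoglutarate dehydrogenase complex and not in the ribosome, had a log2 fold change of 0.56 (SE 0.292), and MRPL58, a hydrolase that frees stalled peptides, one of 0.59 (SE 0.209).

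Both the members and all genes varied with the GC content of the transcript. Across all tested genes with a known transcript the Spearman correlation of log2 fold change with GC content was 0.61 (16236 genes), and across the members it was 0.67 (76 genes, 0.75 in the large and 0.47 in the small subunit). These points share the same 6 libraries. Trends with GC content were taken for each gene's log2 CPM minus its mean over the 6 libraries. Per 10 percentage points they were -0.05, -0.23 and -0.21 in sh-NC 1, 2 and 3, against 0.35, 0.15 and -0.01 in sh-IGF2BP3 1, 2 and 3. The members' median GC content was 47.7%, from 33.5% to 71.9%, close to the 48.7% of all tested genes.

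In each of the 3 classes of GC content the members' median was above that of all genes. Below 45% GC the median log2 fold change was 0.27 for 30 members and -0.29 for all genes. Between 45% and 55% it was 0.39 for 26 members and -0.01 for all genes. At 55% and above it was 0.81 for 20 members and 0.41 for all genes, and 12 of the 15 DESeq2 calls among the members fell in this class, as did 463 of the 560 genes that DESeq2 called higher over the whole table. MRPL41, the member with the highest GC content (71.9%), had a log2 fold change of 1.2 and one of 0.30 with the trends removed. MRPS28 (43.1% GC) had 1.38 and 1.51, and MRPL23 (61.2% GC) had 2.35 and 1.80. All 15 members called by DESeq2 stayed above 0 in that fit, from 0.24 to 1.80 on the log2 scale, and 11 were at an unadjusted p under 0.05. The values of MRPL36 (65.2% GC), MRPL28 (63.3% GC) and MRPS26 (63.4% GC) were then 0.28, 0.25 and 0.24, and their groups overlapped, which left 10 of the 15 calls without overlap against 13 as counted. The 15 were picked as higher in the same libraries, so these counts describe them and are no separate test.

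With each library's trends with GC content and transcript length removed, the median log2 fold change of the members was 0.39, and 70 of 76 were above 0. In that fit edgeR called 0 members. At an unadjusted p under 0.05, 38 members were higher, against 6.77% of all tested genes, and 0 were lower, against 3.65%. The groups did not overlap for 29 members that were higher, against 8.31% of all tested genes, and 2 that were lower, against 6.67%. The library medians of the large subunit were then 0.06, -0.13 and -0.50 in sh-NC, against 0.14, 0.32 and 0.07 in sh-IGF2BP3. The low level in sh-NC 3 was thus also present after removal.

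**Figure D4:**
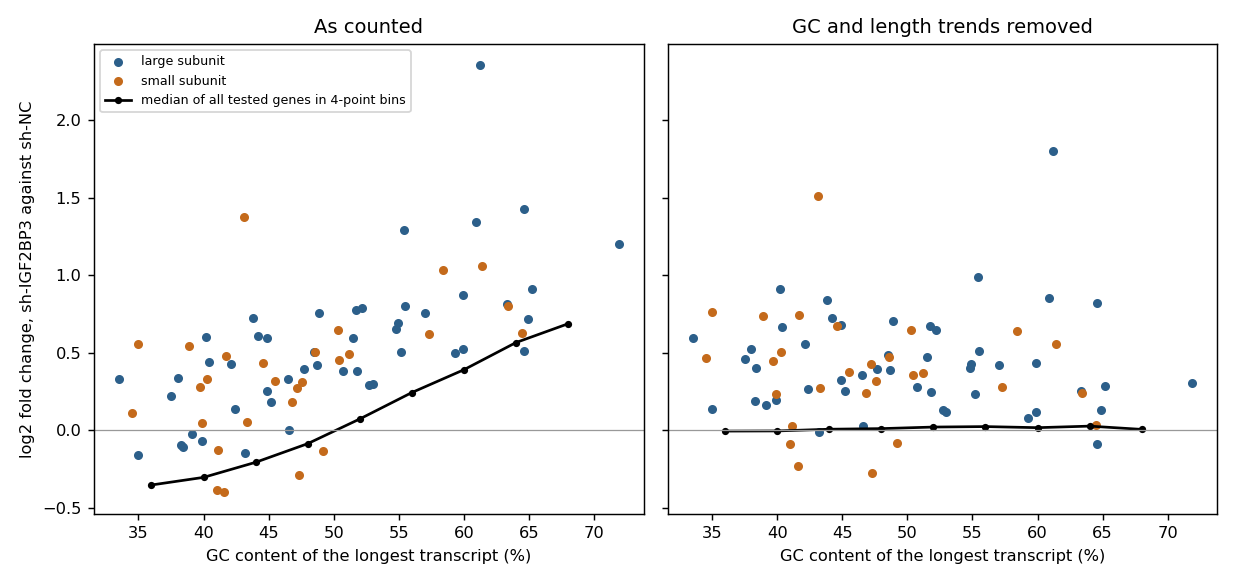
Log2 fold change (y axis) of the 76 tested members against the GC content of the longest transcript (x axis, %), as counted (left) and with each library's GC and length trends removed (right). The black line joins the medians of all tested genes in bins of 4 percentage points, which run from -0.35 to 0.69 on the left and stay within 0.03 of 0 on the right, and most members lie above it in both panels.

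Many of the genes share promoter features. Of the 78 members 27 (34.6%) had a protein-coding gene starting within 1000 bases in the opposite direction by the deposited coordinates, against 17.7% of tested protein-coding genes. MRPS11 and MRPL46 on chromosome 15 are such a pair, 1 from each subunit, with starts 63 bases apart and log2 fold changes of 0.65 (SE 0.255) and 0.60. MRPS12 starts 181 bases from SARS2, the mitochondrial seryl-tRNA synthetase (log2 fold change 1.39), and MRPL36 starts 41 bases from NDUFS6, a subunit of respiratory complex I (0.81). MRPL49 (0.77) starts 6 bases from FAU (1.25), which encodes a cytosolic ribosomal protein. Neighbours could also differ in sign, as with MRPL52 (0.59) and the amino acid transporter SLC7A7 (-0.47), or MRPL47 (0.34) and the complex I subunit NDUFB5 (-0.28). Over the 24 pairs with both genes tested the log2 fold changes had a Spearman correlation of 0.66, and the 2 genes of a pair also share their local base composition. Some of these pairs rest on deposited starts far from the RefSeq start. That start lies 1529 bases inside the deposited gene for MRPL36 and 27890 bases inside for MRPL11, paired with PELI3.

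RefSeq promoter windows of 300 bases (250 before and 50 after the start, GRCh38.p14) were found by symbol for 69 of the 78 members. The RefSeq start lay within 100 bases of the start in the deposited coordinates for 50 of them and farther away for 19. The windows were searched on both strands for 6 motifs chosen after earlier results of these data were known. The ETS-type motif CCGGAAG was present in 42% of members' windows, in 18.4% of those of tested genes and in 10.7% of all windows. The YY1-type motif AAGATGGC was present in 29%, 5.17% and 3.03%, and the NRF1-type motif GCGCANGC in 33.3%, 20.9% and 12.5%. GGGCGGG was present in 49.3% of members' windows and 53.5% of those of tested genes, CCAAT in 29% and 36.5%, and TATAAA in 2.9% and 5.87% (32.9%, 35.7% and 12% of all windows). The last of these, the TATA box, was found in 2 members' windows. Members with CCGGAAG had a median log2 fold change of 0.53 (28 tested genes) and those without it 0.40 (39), while those with and without AAGATGGC had 0.45 (19) and 0.46 (48). A match describes the letters only.

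The following 30-base stretches before the RefSeq start are from 5 named genes with an ETS-, YY1- or NRF1-type match in the last 50 bases. MRPL3 (ETS-type, log2 fold change 0.14) and MRPS18B (NRF1-type, 0.49) also had such a match and are not shown. The ETS-type letters occurred in genes that were higher and in the gene with the lowest log2 fold change. The motif or its reverse complement is in capitals and each sequence is read along the gene's strand.
MRPL54: gccactgacgtCTTCCGGaaacgtgcactt
MRPS26: tccccgcgccgCTTCCGGggcacggtggcg
MRPL43: gtcgtcccggaaCCGGAAGcctcgaggttt
MRPL36: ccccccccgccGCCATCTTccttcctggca
MRPS10: ccgctgtaaccCCGGAAGcaatcctgagag
They lie at chr19:3762650-3762679 (plus strand, MRPL54), chr20:3046004-3046033 (plus, MRPS26), chr10:100987498-100987527 (minus, MRPL43), chr5:1799854-1799883 (minus, MRPL36) and chr6:42217865-42217894 (minus, MRPS10). The RefSeq start of MRPL36 is 1529 bases inside the deposited gene, so this stretch is not the one shared with NDUFS6. MRPL36 carries the YY1-type letters and the other 4 the ETS-type letters. MRPL54, MRPS26, MRPL43 and MRPL36 had log2 fold changes from 0.76 to 1.34, and MRPS10 had -0.40.

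Other genes of mitochondrial translation were grouped by role. Of the 5 proteins of the ribosome with other symbols, GADD45GIP1 was at 26.8, 20 and 10.3 CPM in sh-NC and at 41.9, 51.3 and 34.4 in sh-IGF2BP3 (log2 fold change 1.16, SE 0.285), without overlap. AURKAIP1 had a log2 fold change of 1.16 (SE 0.309) and CHCHD1 one of 0.33 (SE 0.247), both with overlap, and the median of the 5 was 0.33. DESeq2 called GADD45GIP1 and AURKAIP1 higher, against 4.21% of all genes it tested. Of 27 assembly factors 5 were higher and 1 was lower at an unadjusted p under 0.05, against 13.6% and 8.54% of all tested genes. Their median log2 fold change was 0.35 as counted and 0.19 once GC and length trends were removed. With those trends removed 3 were higher and 0 lower at that p, against 6.77% and 3.65%. Among the assembly factors were, as counted, RCC1L (0.70, SE 0.195), the protease LONP1 (0.77, SE 0.236) and NGRN (0.76, SE 0.241). Of these only RCC1L did not overlap between groups.

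Of 17 mitochondrial translation factors 14 had a log2 fold change below 0, with a median of -0.11. Removing the GC and length trends turned the sign, with 11 of 17 above 0 and a median of 0.06. As counted, 2 were higher and 1 lower at an unadjusted p under 0.05, against 13.6% and 8.54% of all tested genes. TACO1, which helps the translation of a respiratory chain mRNA, had a log2 fold change of 1.21 (SE 0.299). The elongation factor TUFM had 0.58 (SE 0.215) and the GTPase GUF1 -0.41 (SE 0.193). The rRNA of the small subunit, MT-RNR1, had a log2 fold change of 0.47 (SE 0.257) and that of the large subunit, MT-RNR2, of -0.19 (SE 0.204). Both overlapped between the groups. The 13 mRNAs that the ribosome translates had a median log2 fold change of -0.30. Of these mRNAs 8 were lower without overlap, against 11.0% of all tested genes. DESeq2 called 1 of them lower, against 1.02% of all genes it tested. With the GC and length trends removed their median was -0.23, and 6 were lower without overlap, against 6.67%. For comparison, the median as counted was 0.54 over 83 genes with symbols of cytosolic ribosomal proteins. It was 0.56 over 81 nuclear genes with symbols of the respiratory chain or of ATP synthase. Symbols alone defined both lists, which can thus hold genes that are not subunits, such as RPS6KL1 and ATP5IF1. With the GC and length trends removed their medians were 0.46 and 0.50, above the 0.39 of the members. DESeq2 called 12 genes higher in each list, against 4.21% of all genes it tested.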

How the data were processed

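RNA was sequenced from 6 HCT116 libraries, 3 per group, with an Illumina TruSeq kit. The authors deposited raw counts per gene and, in a second table, FPKM values made from the same counts, with Ensembl identifiers and coordinates on GRCh38. The submitters' processing notes name CASAVA and GRCh38, while the aligner, the counter and the strand setting are not given in the sources used here. Every column of values belonged to a sample of the series. The implied length behind FPKM was the same in all libraries for the 36335 genes with counts, so FPKM was used for levels between genes and counts for the tests. The members and gene lists were chosen with earlier results of these data known.

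Counts were filtered with filterByExpr, scaled by TMM and tested over all genes with the quasi-likelihood test of edgeR 4.0.16 (R 4.3.3), two-sided, with Benjamini-Hochberg adjustment and the thresholds of the study. CPM were scaled with the TMM factors, and log2 CPM used a prior count of 2. GC content and length came from the longest GENCODE 29 transcript (known for 96.9% of tested genes), and their trends were removed per library with splines of 5 degrees of freedom. Alternatives were DESeq2 1.42.0, RLE and upper-quartile scaling, no filter or at least 10 counts in every library, a replicate block, leaving out each library, limma 3.58.1 on log2(FPKM + 1) and log2(FPKM + 0.1), where the mean FPKM reached 1, or with no filter, the removal of GC and length trends with and without the block, any fold change, and another subunit assignment. Scripts were tested on simulated data.

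Named members were the 10 with the smallest p, the 3 with the highest and the 3 with the lowest log2 fold change, all called by DESeq2 or lower at an unadjusted p under 0.05, the 3 with the highest and the 3 with the lowest mean FPKM, and those not tested (26 in all). Outside the family these were IGF2BP3, the rRNAs and up to 3 genes with the smallest p from each list. MRPL47, MRPL49, MRPL52, MRPL58, MRPS11 and MRPS36, the neighbours of members, the cell type markers and the motifs were added after their values were seen.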

Additional observations from a re-analysis of the deposited data

How the results depend on the processing

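The edgeR counts of 0 genes called depended on the test and the libraries. Over all genes DESeq2 called 560 higher and 136 lower, edgeR without a filter 687 and 150, RLE scaling 1 and 0, a minimum of 10 counts 1 and 0, and limma on log2(FPKM + 1) 0 and 1, while leaving out 1 library gave 0 to 1739 higher and 0 to 985 lower. Of the members DESeq2 called 15 higher, edgeR without a filter 17, and leaving out 1 library gave 0 to 30. Members higher at an unadjusted p under 0.05 ranged from 20 to 51 when 1 library was left out (20 when it was sh-IGF2BP3 2, 21 for sh-NC 3, 23 for sh-NC 2) and from 29 to 39 otherwise. Members lower at that p numbered 0 under DESeq2, without a filter, under the replicate block, and with the GC and length trends removed with or without the block, and 0 to 2 when 1 library was left out. The difference between the medians of the large and small subunit fell to 0.026 once trends with GC content and length were removed and to 0.005 with the replicate block as well. It was 0.126 under the replicate block alone, under which 0 members were called and 35 were higher at an unadjusted p under 0.05. The study speaks of pairs of cells without saying what a pair shares. The same-numbered libraries deviated with correlations of -0.284, -0.186 and -0.043 and no sample correlated best with its own number, so the numbers were not taken as pairs, and these 3 values do not settle whether they are. The medians of both subunits kept their sign under all alternatives run, from 0.345 to 0.618 for the large and from 0.241 to 0.517 for the small subunit. Signs of single genes were followed through all alternatives only for the named members. Among these the sign of the log2 fold change turned for MRPS5 (-0.24 to 0.043 when 1 library was left out, 0.004 without sh-NC 3), MRPL3 (-0.011 to 0.282 when 1 library was left out), MRPL38 (-0.087 with GC and length trends removed, -0.081 with the block as well) and MRPL45 (RLE -0.0001, upper-quartile -0.056, minimum of 10 counts -0.019, -0.107 to 0.083 when 1 library was left out, limma -0.073, -0.074 and without a filter -0.073). Members not followed in this way also turned, such as MRPL42 (-0.104 as counted, 0.4 with GC and length trends removed). Over all members, 11 were below 0 as counted and 6 with those trends removed. The cause was not tested. The tested member with the fewest counts had 45 to 88 in a library, which limits its precision.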
